A study of Mus musculus with 10 samples.

Results

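Sycp1, Sycp2, Sycp3, Syce1, Syce2, Syce3, Tex12, Hormad1 and Hormad2 were followed in mouse testis, as transcripts through spermatogenesis and as accessible chromatin around each gene. These 9 genes, out of 32285 in the count tables, were chosen as the classic structural genes of the synaptonemal complex and its HORMA-domain axis proteins, and all 9 were found by symbol in both single-cell samples. The study concerns SMARCA5, the ATPase of ISWI chromatin remodelers, in the male germ line. Transcripts were counted in 2 whole-testis suspensions, both from Smarca5 fl/delta; Ddx4-Cre+ animals (cKO), loaded at 15000 cells with 3′ v3.1 chemistry. Accessible chromatin was given as ATAC-seq peak lists of 8 libraries of 50000 sorted cells, with 2 libraries in each of 4 groups: 4C-sorted cKO, 4C-sorted wild type (WT, C57BL6), cKIT+ cKO and cKIT+ WT. The 4C libraries hold cells sorted by Hoechst staining for 4C DNA content, which the submitters call pachytene or pachytene-like, while cKIT marks differentiating spermatogonia. The labels of the cKIT+ libraries name no cell type, and this name comes from the series' design text. The cKO libraries carry the same genotype as the single-cell samples. Ddx4-Cre acts in germ cells, so somatic cells of a cKO testis keep a floxed allele. Ages, the deleted exon, and whether replicates came from separate animals are not given in the sources used here. Every p below therefore measures only the spread within this set of samples and libraries. Because both single-cell samples are cKO, RNA levels could be compared between stages and not between genotypes.

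In meiotic prophase each pair of sister chromatids is folded along a protein axis, and the axes of homologous chromosomes are then zipped together by the synaptonemal complex. SYCP2 and SYCP3 build the axis, HORMAD1 and HORMAD2 bind unsynapsed axes and are removed as synapsis proceeds, SYCP1 forms the transverse filaments that bridge both axes, and SYCE1, SYCE2, SYCE3 and TEX12 form the central element in the middle. Axes appear in leptotene, synapsis spreads in zygotene and is complete in pachytene, and the complex comes apart before the first meiotic division.

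The 250 bases before the annotated start of 5 of the genes are shown because their transcripts took different courses and because they differ in a motif: Sycp3, Hormad1, Sycp1 and Syce3 were highest in leptotene or zygotene cells, and Syce1 was highest later. They come from RefSeq on GRCm38.p6 (mm10), read along each gene's strand, at chr10:88459337-88459586 (plus) for Sycp3, chr3:95559427-95559676 (plus) for Hormad1, chr3:102936101-102936350 (minus) for Sycp1, chr15:89410504-89410753 (minus) for Syce3, upstream of the outer of its annotated starts, and chr7:140787855-140788104 (minus) for Syce1. Capitals mark CACGTG, the E-box core, which reads the same on both strands.
Sycp3: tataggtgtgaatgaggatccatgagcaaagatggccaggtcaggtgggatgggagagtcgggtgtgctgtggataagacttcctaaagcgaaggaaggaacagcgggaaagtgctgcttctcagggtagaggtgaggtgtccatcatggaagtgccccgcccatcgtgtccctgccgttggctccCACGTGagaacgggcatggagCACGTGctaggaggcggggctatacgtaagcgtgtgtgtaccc
Hormad1: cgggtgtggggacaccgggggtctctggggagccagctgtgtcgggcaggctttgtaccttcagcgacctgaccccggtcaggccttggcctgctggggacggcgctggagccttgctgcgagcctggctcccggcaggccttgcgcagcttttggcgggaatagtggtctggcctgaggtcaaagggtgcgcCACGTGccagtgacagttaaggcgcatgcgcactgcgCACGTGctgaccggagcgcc
Sycp1: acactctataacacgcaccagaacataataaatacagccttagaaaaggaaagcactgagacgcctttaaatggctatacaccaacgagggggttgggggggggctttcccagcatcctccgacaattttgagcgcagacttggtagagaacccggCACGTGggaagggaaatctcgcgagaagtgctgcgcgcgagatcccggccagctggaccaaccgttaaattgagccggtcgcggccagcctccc
Syce3: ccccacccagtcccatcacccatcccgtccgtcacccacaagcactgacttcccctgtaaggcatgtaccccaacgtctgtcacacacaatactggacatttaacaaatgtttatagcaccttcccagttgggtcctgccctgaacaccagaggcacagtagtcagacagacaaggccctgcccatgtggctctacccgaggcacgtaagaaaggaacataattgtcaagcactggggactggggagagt
Syce1: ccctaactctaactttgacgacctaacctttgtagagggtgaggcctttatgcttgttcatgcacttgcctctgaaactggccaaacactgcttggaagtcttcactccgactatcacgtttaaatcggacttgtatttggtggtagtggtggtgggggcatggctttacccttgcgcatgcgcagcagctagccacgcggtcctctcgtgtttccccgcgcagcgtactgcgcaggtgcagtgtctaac
The E-box began 64 and 43 bases before the start of Sycp3, 57 and 20 bases before the start of Hormad1 and 94 bases before the start of Sycp1, and the Syce3 and Syce1 windows held none. Tex12 held an E-box 93 bases before its start, and Syce2 held 1 at 88 bases before the second of its annotated starts. Sycp2 and Hormad2 held none, so among the 7 genes highest in leptotene or zygotene cells 4 held an E-box and 3 did not, and of the other two Syce2 held one and Syce1 did not. In all, 5 of the 9 genes had CACGTG in a 250-base window, against 6.86% of 27025 genes. Of the other motifs searched on both strands, GGCGGGA (E2F core) was in 3 of the 9 and in 2981 of all 27025 genes, CAACNG (MYB) in 4 of the 9 and in 32.3% of genes, CNCCTCAG (a motif reported for STRA8) in 2 of the 9 and in 7.39%, and TGACGTCA (CRE) in 0 of the 9 and in 1.77%. CpG counts per window ran between 5 and 24 for the 9 genes, with a median of 6 and quartiles of 2 and 17 over all genes. These matches describe letters in a window and do not show binding.

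After filtering, sample 1 held 7413 cells with a median of 3678 UMIs (unique transcript tags) and sample 2 held 12933 cells with a median of 4333. Only 27 barcode sequences occurred in the cells of both samples, 0.36% of the smaller set. Cells were named by marker genes that exclude all 9 genes studied, so each stage name below means cells like that stage. Of the named cells, 2845 of 6429 in sample 1 and 3723 of 10401 in sample 2 scored on their best stage under 1.5 times their second, and lie near a boundary. Leptotene or zygotene cells numbered 515 and 1179, and their 9 markers, which include Prdm9 and Tex101, were all detected and summed to 5129 and 7259 counts-per-million of all UMIs (CPM). The same list summed to 1012 and 1952 CPM in differentiating spermatogonia and to 1462 and 1304 CPM in pachytene cells. The 9 pachytene markers summed to 3793 and 2074 CPM in the leptotene or zygotene cells and to 11594 and 13789 CPM in pachytene cells. Smarca5 itself stood at 347 and 229 CPM in differentiating spermatogonia, 244 and 291 in leptotene or zygotene, 52.8 and 26.0 in pachytene, 34.2 and 23.7 in late pachytene or dividing cells, 6.02 and 4.16 in round spermatids and 9.94 and 5.01 in elongating spermatids. In Sertoli, Leydig and macrophage classes it lay between 26.3 and 78.4 CPM. A 3′ tag does not measure the deleted allele, so these values do not check the knockout.

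Transcripts of 7 of the 9 genes were highest in leptotene or zygotene cells in both samples, when axes form and synapsis begins. Syce1 was highest in late pachytene or dividing cells, and Syce2 was highest in elongating spermatids. Paired values below give sample 1 and then sample 2, in CPM of all UMIs summed over the cells of a stage.

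The axis genes Sycp2 and Sycp3 had a peak at the first stage of prophase. Sycp3 stood at 414 and 587 CPM in differentiating spermatogonia, 2546 and 3364 in leptotene or zygotene, 676 and 543 in pachytene, 681 and 533 in late pachytene or dividing cells, 69.3 and 52.4 in round spermatids and 77.4 and 32.1 in elongating spermatids. Both leptotene or zygotene values lay above every other Sycp3 value, and the ranges of the stages directly before and after overlapped each other. Sycp2 stood at 209 and 177 CPM in differentiating spermatogonia, 1027 and 931 in leptotene or zygotene, 586 and 269.6 in pachytene, 363 and 170.0 in late pachytene or dividing cells, 74.5 and 40.7 in round spermatids and 46.2 and 24.8 in elongating spermatids. Sycp2 was again highest in leptotene or zygotene cells, and its pachytene level differed more between the samples than its leptotene or zygotene level did.

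The HORMA genes peaked at the same stage and were near their lowest in spermatids. Hormad1, which recruits the machinery that senses unsynapsed chromosomes, stood at 156 and 221 CPM in differentiating spermatogonia, 1213 and 1251 in leptotene or zygotene, 345 and 228 in pachytene, 351 and 233 in late pachytene or dividing cells, 33.2 and 21.0 in round spermatids and 32.5 and 11.7 in elongating spermatids. The samples lay close together at the Hormad1 peak, and its pachytene and late pachytene ranges overlapped. Hormad2, its paralog on unsynapsed axes, stood at 63.2 and 57.4 CPM in differentiating spermatogonia, 256 and 218 in leptotene or zygotene, 109.6 and 35.9 in pachytene, 73.2 and 35.8 in late pachytene or dividing cells, 8.5 and 6.1 in round spermatids and 11.6 and 4.64 in elongating spermatids. Hormad2 in differentiating spermatogonia lay inside the range of pachytene, so these stages could not be ordered.

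Sycp1, the transverse filament gene, already stood at 813 and 593 CPM in differentiating spermatogonia. It reached 2556 and 2252 CPM in leptotene or zygotene, and was at 760.3 and 274 in pachytene, 609 and 236 in late pachytene or dividing cells, 151 and 75.04 in round spermatids and 79.8 and 31.4 in elongating spermatids. The leptotene or zygotene values stood clear of all others, and the ranges of differentiating spermatogonia and pachytene overlapped.

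The central element genes did not share 1 course. Tex12, whose protein assembles with SYCE2 into fibres, stood at 169.7 and 179 CPM in differentiating spermatogonia, 474 and 458 in leptotene or zygotene, 110.4 and 49.9 in pachytene, 106 and 44.3 in late pachytene or dividing cells, 13.2 and 6.33 in round spermatids and 11.3 and 3.16 in elongating spermatids. Tex12 thus had the peak of the axis genes. Syce2 stood at 458 and 673 CPM in differentiating spermatogonia, 481 and 781 in leptotene or zygotene, 77.5 and 56.4 in pachytene, 81.7 and 74.6 in late pachytene or dividing cells, 636 and 685 in round spermatids and 1155 and 1206 in elongating spermatids. Syce2 was lowest at pachytene and late pachytene, and its elongating spermatid values lay above all of its others. Syce3, which mouse synapsis needs to begin, stood at 103 and 146 CPM in differentiating spermatogonia, 393 and 537 in leptotene or zygotene, 134 and 139.8 in pachytene, 143 and 140.4 in late pachytene or dividing cells, 221 and 229.8 in round spermatids and 223 and 218 in elongating spermatids. Syce3 had a peak in leptotene or zygotene and a lower, second level in spermatids, with round and elongating ranges that overlapped. Syce1, without which synapsis fails in mice, stood at 172 and 186 CPM in differentiating spermatogonia, 299 and 266 in leptotene or zygotene, 610.0 and 646 in pachytene, 704 and 689 in late pachytene or dividing cells, 375 and 329 in round spermatids and 272 and 253 in elongating spermatids. Pachytene and late pachytene held the highest Syce1 values in both samples, and leptotene or zygotene overlapped with elongating spermatids.

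**Figure D1:**
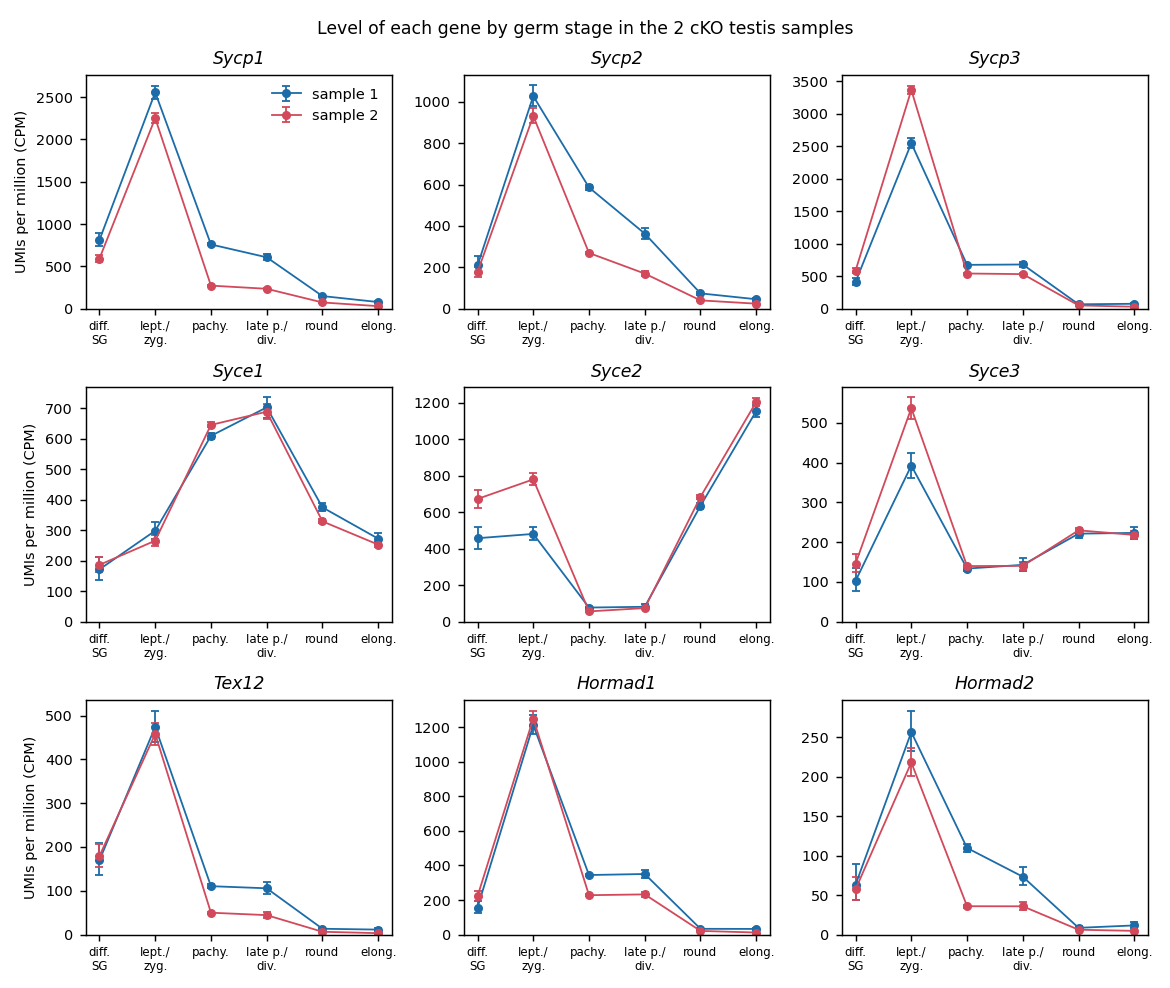
Level of each of the 9 genes (CPM, linear axis from 0) in 6 germ cell stages of the 2 cKO testis samples; points are samples and bars are exact 95% Poisson intervals, which cover counting error only. Sycp1, Sycp2, Sycp3, Syce3, Tex12, Hormad1 and Hormad2 are highest in leptotene or zygotene cells (for Sycp3 2546 and 3364 CPM), Syce1 in late pachytene or dividing cells (704 and 689 CPM) and Syce2 in elongating spermatids (1155 and 1206 CPM).

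The steps between neighbouring stages were tested with edgeR's quasi-likelihood model on the summed counts, with the sample as a block and Benjamini-Hochberg adjustment over 17997 genes. All 9 genes passed its low-count filter. In leptotene or zygotene cells over differentiating spermatogonia, 8 of the 9 rose and 0 fell, also at an unadjusted p under 0.05, where 14.7% of all genes tested rose and 12.6% fell. The median log2 fold change of the 9 was 2.12, beside 0.18 over all genes. Hormad1 had the largest rise of the 9, at 2.90 ± 0.32 on the log2 scale (SE, edgeR adjusted p = 2.74e-11). Sycp3 rose by 2.79 ± 0.33 (edgeR adjusted p = 2.19e-10), Sycp2 by 2.59 ± 0.31 (2.64e-10), Hormad2 by 2.19 ± 0.32 (5.77e-08), Syce3 by 2.12 ± 0.31 (6.47e-08), Sycp1 by 2.06 ± 0.32 (2.84e-07) and Tex12 by 1.63 ± 0.29 (5.32e-06). Syce1 rose by 0.88 ± 0.31 with an edgeR adjusted p of 0.0255, and this call was lost under 7 of the alternatives, where the adjusted p lay between 0.0743 and 0.593. Syce2 had a log2 fold change of 0.39 ± 0.31 and an edgeR adjusted p of 0.382.

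In pachytene over leptotene or zygotene cells, 8 of the 9 fell and Syce1 rose, where 27.8% of all genes tested fell and 29.2% rose. The median of the 9 was -1.68, beside 0.03 over all genes. Syce2 fell by 2.76 ± 0.33 on the log2 scale (edgeR adjusted p = 3.31e-11) and Tex12 fell by 2.21 ± 0.28 (1.69e-10). The log2 fold change was -1.93 ± 0.31 for Sycp1 (edgeR adjusted p = 1.91e-07), -1.83 ± 0.32 for Sycp3 (7.55e-07), -1.68 ± 0.30 for Hormad1 (1.59e-06), -1.39 ± 0.28 for Hormad2 (1.35e-05) and -1.30 ± 0.29 for Syce3 (7.18e-05). Syce1 rose by 1.63 ± 0.30 (edgeR adjusted p = 3.83e-06). Sycp2 fell by 0.83 ± 0.29 (edgeR adjusted p = 0.0101), and that call was lost without the sample as a block (0.0944), with at least 2000 UMIs per cell (0.0817), with stages named from clusters (0.327) and with 2 markers and no minimum score (0.0689). The Sycp2 log2 fold change was -1.26 without sample 1 and -0.41 without sample 2, and that of Hormad2 was -2.07 without sample 1 and -0.83 without sample 2.

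In late pachytene or dividing cells over pachytene cells, 0 of the 9 passed the edgeR test in either direction, and DESeq2 also called 0, where 1.35% of all genes tested rose and 1.71% fell. At an unadjusted p under 0.05, 0 were higher and 1 was lower, Sycp2 at -0.71 ± 0.29 with an edgeR adjusted p of 0.169. The other log2 fold changes lay between -0.39 (Hormad2) and 0.19 (Syce2). These classes were weakly separated. The late pachytene or dividing markers summed to 1852 and 1858 CPM in their own class, against 971 and 1116 in pachytene cells. The pachytene markers summed to 10822 and 11911 CPM in the late class, against 11594 and 13789 in pachytene cells. The count of 0 of the 9 therefore does not show a steady level through late pachytene. It also depended on how the stages were named, because naming cells by their summed share of marker UMIs called 5 of the 9 higher in late pachytene or dividing cells. That class then held 362 and 546 cells. The share of all genes called with that naming is not given here, so the count does not set the 9 apart.

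In round spermatids over late pachytene or dividing cells, 6 of the 9 fell and 2 rose, where 25.9% of all genes tested fell and 32.5% rose. Hormad1 fell by 2.91 ± 0.32 on the log2 scale (edgeR adjusted p = 5.53e-13). The log2 fold change was -2.80 ± 0.33 for Sycp3 (edgeR adjusted p = 8.39e-12), -2.39 ± 0.30 for Tex12 (7.29e-11), -2.30 ± 0.31 for Hormad2 (5.52e-10), -1.66 ± 0.29 for Sycp2 (9.09e-07) and -1.33 ± 0.31 for Sycp1 (1.34e-04). Both genes that rose belong to the central element. Syce2 rose by 3.61 ± 0.35 (edgeR adjusted p = 3.12e-15) and Syce3 by 1.20 ± 0.29 (2.13e-04), the second of which was lost with the summed marker share (0.123). Syce1 had a log2 fold change of -0.47 ± 0.30 and an edgeR adjusted p of 0.174. The median of the 9 was -1.66, beside 0.00 over all genes.

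In elongating over round spermatids only Syce2 passed the edgeR test, with a rise of 1.28 ± 0.31 on the log2 scale (adjusted p = 5.21e-04), where 20.0% of all genes tested rose and 19.6% fell. Per cell, Syce2 averaged 4.75 and 7.87 UMIs in elongating spermatids, against 4.78 and 9.07 in round spermatids. The rise was thus in its share of the RNA counted, not in UMIs per cell. None of the 9 was called lower by edgeR, 1 was lower at an unadjusted p under 0.05 (Sycp1, -0.63 ± 0.31, adjusted p = 0.0972), and DESeq2 called 0 lower. The median of the 9 was 0.06, beside 0.09 over all genes, and it was -0.21 without sample 1 and 0.36 without sample 2.

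**Figure D2:**
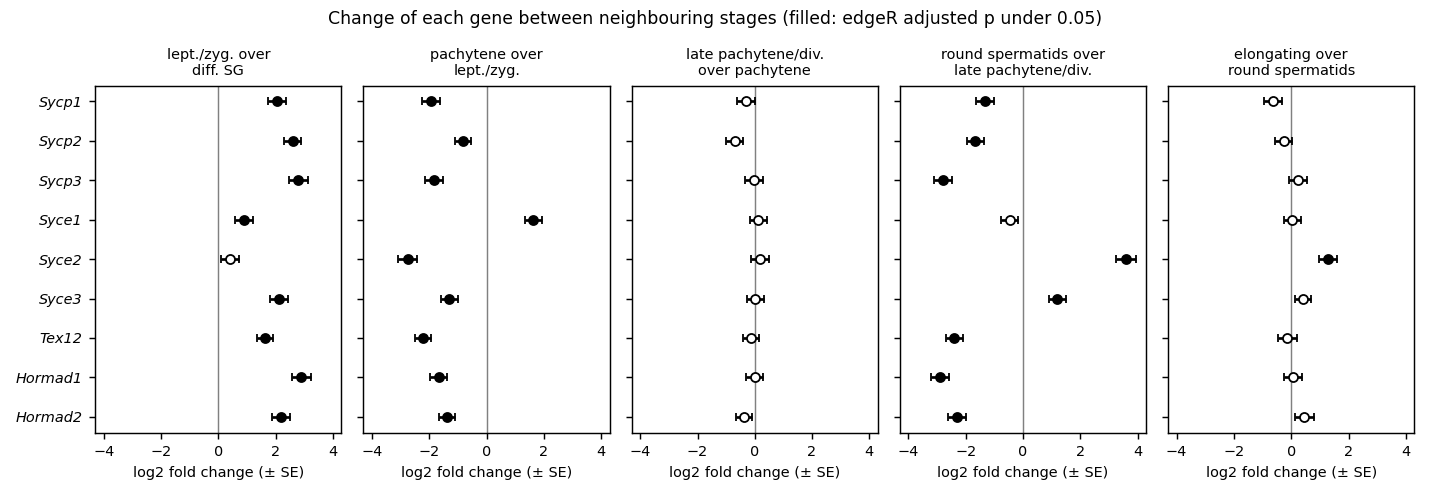
Log2 fold change of each gene in each of 5 steps between neighbouring germ cell stages, later stage over earlier stage, with bars of 1 SE from the edgeR fit over both cKO samples; filled points have an adjusted p under 0.05. The rise into leptotene or zygotene (8 of 9 genes), the fall into pachytene (8 of 9, with Syce1 at 1.63) and the rise of Syce2 in round spermatids (3.61) can be read from left to right.

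A level in CPM is a share of the RNA counted in a stage, and pachytene cells held more UMIs than leptotene or zygotene cells, with medians of 7664 and 10933 in pachytene, against 2208 and 1831 in leptotene or zygotene. Counted per cell, the difference between these stages was smaller for most of the genes and had another sign for some. Sycp2 averaged 4.91 and 3.60 UMIs per cell in pachytene, against 3.12 and 2.22 in leptotene or zygotene, so it was higher per cell in pachytene and lower in CPM. Syce1 averaged 5.11 and 8.64 UMIs per cell in pachytene, against 0.907 and 0.634 in leptotene or zygotene. Sycp1 averaged 6.37 and 3.66 UMIs per cell in pachytene, against 7.77 and 5.37 in leptotene or zygotene. Sycp3 averaged 5.66 and 7.26 in pachytene, against 7.73 and 8.03 in leptotene or zygotene. In both samples 2 of the 9 genes (Sycp2 and Syce1) had more UMIs per cell in pachytene and 4 (Sycp1, Sycp3, Syce2 and Tex12) had fewer. For Syce3, Hormad1 and Hormad2 the samples went opposite ways. UMIs per cell depend on how deeply each cell was captured and sequenced, and cell size and capture cannot be told apart here.

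**Figure D3:**
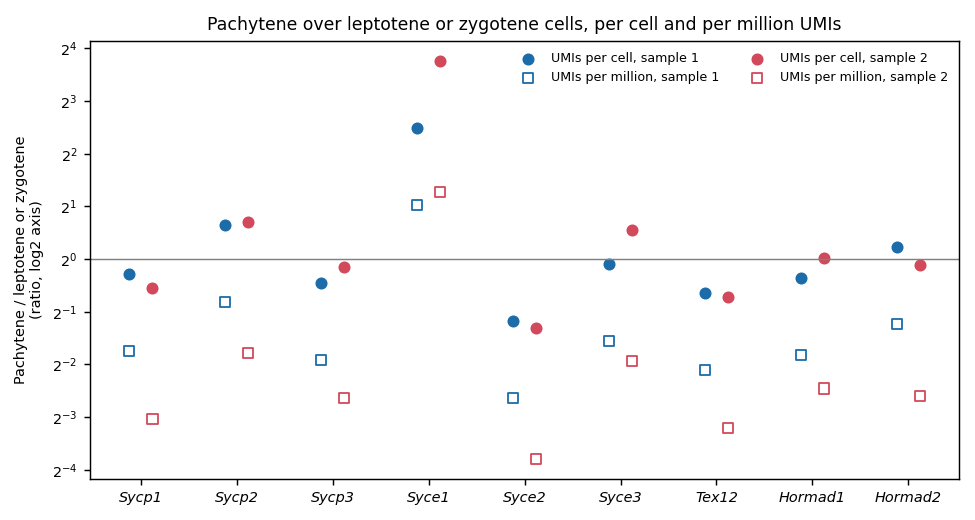
Ratio of pachytene to leptotene or zygotene cells for each gene and sample on a log2 axis, as UMIs per cell (filled circles) and as CPM (open squares). Squares lie below 1 for every gene except Syce1, while circles for Sycp2 (1.57 and 1.62) and Syce1 (5.64 and 13.6) lie above 1 in both samples.

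The share of cells with at least 1 UMI showed the same contrast once depth was made equal. Sycp3 was seen in 87.8% and 90.0% of pachytene cells, against 94.6% and 96.5% of leptotene or zygotene cells. After thinning every cell to 1000 UMIs, which left out no cell, these shares were 46.2% and 40.1% in pachytene, against 85.8% and 92.2% in leptotene or zygotene. Sycp1 was at 42.0% and 22.9% of thinned pachytene cells, against 86.2% and 80.3% of thinned leptotene or zygotene cells. Without thinning it was at 78.1% and 72.1% in pachytene, against 94.8% and 91.3% in leptotene or zygotene. Syce1 went the other way, with 44.1% and 45.5% of thinned pachytene cells, against 27.0% and 22.6% of thinned leptotene or zygotene cells. Without thinning it was at 89.9% and 92.2% in pachytene, against 53.2% and 43.1% in leptotene or zygotene. Sertoli cells, which should lack these transcripts, held a Sycp3 UMI in 18.8% and 16.9% of thinned cells (31.7% and 36.7% unthinned, median depths 1628 and 3131 UMIs). Leydig cells held one in 2.98% and 3.92% of thinned cells (8.16% and 12.3% unthinned, median depths 2455 and 4052.5). The Sertoli cells also held germ cell RNA in general, with 31697 and 9095 CPM of the elongating spermatid markers.

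Free RNA, read in 15453 barcodes of 10 to 100 UMIs in sample 1, held Sycp1 at 432 CPM, Sycp2 at 416, Sycp3 at 349.7, Syce1 at 409.98, Syce2 at 262, Syce3 at 153, Tex12 at 64.9, Hormad1 at 216 and Hormad2 at 92.8. In spermatids the values of 7 of the 9 genes (Sycp1, Sycp2, Sycp3, Syce1, Tex12, Hormad1 and Hormad2) lay below these in both samples. So did Syce1 in leptotene or zygotene cells, Sycp2, Syce1, Syce3 and Hormad2 in differentiating spermatogonia, and Syce2 and Syce3 in pachytene cells. In late pachytene or dividing cells Sycp2, Syce2, Syce3 and Hormad2 also lay below their free RNA values in both samples. Free RNA was not measured in sample 2, and its part in these values was not tested. The Syce2 values in round and elongating spermatids lay above its free RNA level and above its 429 and 215 CPM in Sertoli cells. After thinning, 67.3% and 71.2% of elongating spermatids held a Syce2 UMI, against 44.7% and 46.1% of round spermatids, and 36.6% and 15.0% of Sertoli cells did (90.8% and 95.8% of elongating, 87.4% and 91.8% of round spermatids and 51.5% and 35.7% of Sertoli cells without thinning). Syce3 in spermatids, at 218 to 229.8 CPM, lay above its 161 and 80.7 CPM in Sertoli cells and above 153 CPM in free RNA. Several members overlap other genes on the opposite strand, and the file headers do not say how strand was used in counting. Gcdh, which overlaps the 3′ end of Syce2, had at most 3.95 CPM in any germ cell stage, and Il18, inside which Tex12 lies, had at most 39.1 CPM. Chpt1, whose 3′ part overlaps that of Sycp3, lay between 49.1 and 177.6 CPM over the 6 germ cell stages.

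Cells with at least 2 UMIs of Stra8, which drives entry into meiosis, numbered 92 and 216. They were taken from the differentiating spermatogonia and the leptotene or zygotene cells together. Cells are not replicates, so the values are a description. Sycp3 stood at 913 and 1253 CPM in them, against 378 and 567 CPM in differentiating spermatogonia with fewer Stra8 UMIs and 2601 and 3433 CPM in leptotene or zygotene cells with fewer. Hormad1 stood at 319 and 444 CPM in the Stra8 cells, against 157 and 195 in those spermatogonia and 1251 and 1288 in those leptotene or zygotene cells. Sycp2 stood at 413 and 342 CPM in the Stra8 cells, against 212 and 181 in the spermatogonia and 1042 and 952 in the leptotene or zygotene cells. The Stra8 cells lay between the other cells for these genes in both samples. They hold cells of both classes, and a mixture would also lie between, so these values do not order the cells in time. Syce2 in the Stra8 cells, at 657 and 981 CPM, lay above both the spermatogonia (444 and 589) and the leptotene or zygotene cells (452 and 729).

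Pachytene cells with a UMI of Ccna1, a cyclin of later spermatocytes, were set beside those without as a description within the stage. They numbered 850 and 1512 with and 1562 and 1220 without, at median depths of 9598 and 13929 UMIs with and 6853.5 and 7898 without. Sycp1 stood at 369 and 134 CPM with Ccna1, against 1084 and 573 without. Tex12 stood at 39.9 and 17.6 CPM with, against 169 and 119 without. Syce1 was the exception among the 9, at 701 and 677 CPM with Ccna1, against 535 and 579 without, while the other 8 were lower with Ccna1 in both samples. Depth was higher in the cells with Ccna1 in both samples, and its part in the result was not tested.

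The 9 genes were also set against a list of 35 partner genes of the axis, synapsis and recombination, all of which were tested. In leptotene or zygotene cells over differentiating spermatogonia, where 14.7% of all genes tested rose and 12.6% fell, 23 of the 35 rose and 3 fell. The list median log2 fold change was 1.18. The largest changes past the threshold were those of Meiob, a single-strand DNA binding factor of recombination (4.41 ± 0.39, edgeR adjusted p = 7.17e-15), Cntd1, a crossover factor (3.58 ± 0.34, 1.09e-13), and Mcmdc2 (3.20 ± 0.52, 1.24e-06). In pachytene over leptotene or zygotene cells 2 rose and 24 fell, beside 29.2% and 27.8% of all genes tested, with a list median of -1.54. Here the log2 fold change was -6.27 ± 0.52 for the meiotic cohesin gene Rad21l (edgeR adjusted p = 1.74e-17), -5.98 ± 0.36 for Tex11 (9.92e-24) and -5.72 ± 0.35 for the recombinase gene Dmc1 (8.32e-24), against -2.76 for Syce2, which fell most of the 9. In late pachytene or dividing cells over pachytene, where 1.35% of all genes tested rose and 1.71% fell, Dmc1 alone of the 35 passed the test. Its log2 fold change was 1.41 ± 0.38 (edgeR adjusted p = 0.0228). In round spermatids 6 of the 35 rose and 17 fell, beside 32.5% and 25.9% of all genes tested. These partner genes included Mlh3 at -3.40 ± 0.34 and Ccnb1ip1 at -3.21 ± 0.43, and Rec114 at 2.50 ± 0.37 (edgeR adjusted p = 1.56e-14, 5.18e-10 and 9.92e-09). In elongating over round spermatids 3 of the 35 rose and 12 fell, beside 20.0% and 19.6% of all genes tested. The largest partner changes were those of Skp1a at -2.40 ± 0.29, Rec8 at -2.27 ± 0.35 and Spo11 at -1.96 ± 0.31 (edgeR adjusted p = 9.88e-11, 1.36e-07 and 1.70e-07).

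Across the 12 sums of 6 stages in 2 samples, each centred within its sample, the genes most like the mean of the 9 were Mcmdc2 (Pearson r = 0.987), Meiob (0.984), Calr (0.971), 4930425O10Rik (0.970), Hfm1 (0.969), Zdhhc6 (0.968), CN725425 (0.968), Zmynd11 (0.967), Zmym6 (0.966) and Phf3 (0.965). Mcmdc2, Meiob and Hfm1 were also on the partner list. These points share samples and depth, so no p is given. Within the 9, the r of a gene with the mean of the other 8 was 0.933 for Hormad2, 0.932 for Sycp3, 0.923 for Hormad1, 0.918 for Sycp2, 0.906 for Sycp1 and 0.821 for Tex12. It was -0.058 for Syce3, -0.338 for Syce1 and -0.533 for Syce2, so 3 of the 4 central element genes followed courses of their own. The gene most like each was Lonp2 for Sycp1 (0.993), Tbc1d1 for Sycp2 (0.990), Swi5 for Sycp3 (0.988) and for Hormad1 (0.992), Ttc9 for Syce1 (0.995), Prdx4 for Syce2 (0.992), Mmp24 for Syce3 (0.969), Cnih4 for Tex12 (0.990) and Phf3 for Hormad2 (0.987).

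Accessible chromatin at the 9 genes was read from the authors' peak lists on mm10. The lists held 54059 and 57788 peaks in 4C-sorted cKO, 55756 and 59417 in 4C-sorted WT, 127222 and 121802 in cKIT+ cKO, and 44697 and 112518 in cKIT+ WT, so the cKIT+ WT replicate 1 list was the shortest. Read depth is unknown for these libraries.

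Every one of the 9 genes had a peak within 1000 bases of an annotated start in all 8 libraries, which 42.4% of 27025 genes had. The starts were thus called accessible in cKIT+ cells of both genotypes as well as in 4C-sorted cells. Merged over libraries, the start-site region lay at chr3:102935355-102936575 for Sycp1, chr2:178406921-178407869 for Sycp2, chr10:88459244-88460726 for Sycp3, chr7:140787173-140788349 for Syce1, chr8:84871642-84872975 for Syce2, chr15:89409871-89410884 for Syce3, chr9:50560688-50561658 for Tex12, chr3:95559191-95560353 for Hormad1 and chr11:4440631-4441729 for Hormad2. The promoter windows printed above lie inside these regions. No start-site peak was gained or lost by the rule of all libraries in one group and none in the other. The count was 0 of 9 in 4C-sorted over cKIT+, beside 1.21% of genes gained and 0.951% lost. It was also 0 of 9 in cKO over WT, beside 1.06% gained and 0.559% lost in 4C-sorted cells and 1.83% gained and 0.144% lost in cKIT+ cells.

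Within its own list each start-site peak carries the authors' fold over local background, which is used here only to describe that list. The Sycp2 peak had a fold of 7.998 and 8.05 in 4C-sorted cKO, 8.54 and 8.43 in 4C-sorted WT, 9.55 and 9.13 in cKIT+ cKO and 7.11 and 7.32 in cKIT+ WT. Between 89.9% and 96.7% of the peaks of the same list had a lower fold. The Syce2 peak had a fold of 4.65 and 4.44 in 4C-sorted cKO, 5.64 and 5.63 in 4C-sorted WT, 5.18 and 5.05 in cKIT+ cKO and 4.23 and 4.07 in cKIT+ WT, and between 47.0% and 80.5% of peaks were lower. Sycp2 therefore stood nearer the top of its lists than Syce2.

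Bases covered by peaks over each gene and 5 kb on either side were compared between stages with an exact two-sided permutation test over 4 against 4 libraries, for which the smallest p is 0.0286. Sycp2 had 2103 and 2892 covered bases in 4C-sorted cKO and 3355 and 2629 in 4C-sorted WT, against 1060 and 1041 in cKIT+ cKO and 947 and 928 in cKIT+ WT. All 4 of the 4C libraries lay above all 4 of the cKIT+ libraries, with a mean log2 difference of 1.45 (exact permutation p = 0.0286). Hormad1 had 2284 and 2799 covered bases in 4C-sorted cKO and 2560 and 2108 in 4C-sorted WT, against 1643 and 1601 in cKIT+ cKO and 1228 and 1543 in cKIT+ WT. Its groups did not overlap either, with a mean log2 difference of 0.70 (exact permutation p = 0.0286). These 2 of 9 genes compare with 6.2% of 23819 genes whose 4C libraries all lay above their cKIT+ libraries, and 0 of 9 lay below, beside 7.24%. With peaks of a −log10 q of at least 5 alone, 0 of the 9 genes had groups that did not overlap.

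The other 7 genes overlapped between stages, with exact permutation p between 0.114 and 0.943. Tex12 had 787 and 921 covered bases in 4C-sorted cKO and 966 and 911 in 4C-sorted WT, against 1549 and 1453 in cKIT+ cKO and 822 and 1747 in cKIT+ WT. The short cKIT+ WT replicate 1 list was the only cKIT+ library inside the range of the 4C libraries for Tex12 (log2 difference -0.58, exact permutation p = 0.114). Sycp1 had 1310 and 1852 in 4C-sorted cKO and 1050 and 1685 in 4C-sorted WT, against 1120 and 1088 in cKIT+ cKO and 1179 and 822 in cKIT+ WT (log2 difference 0.47, exact permutation p = 0.114). Summed over the 9 genes, covered bases averaged 14280 ± 765 in 4C-sorted and 11080 ± 1406 in cKIT+ libraries (SD, n = 4 each), a log2 ratio of 0.37. The sum does not stand for each gene. Sycp2 (1.45) and Hormad1 (0.70) had the largest log2 differences, while Tex12 (-0.58) and Syce2 (-0.19) went the other way. The median log2 ratio of single genes was -0.36 over 23819 genes, which is not the same measure as a ratio of sums. As a share of each library's covered bases, the 9 genes held 536 to 577 bases per Mb covered in the 4C libraries. The share was 239 to 292 in 3 cKIT+ libraries and 585 in cKIT+ WT replicate 1.

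**Figure D4:**
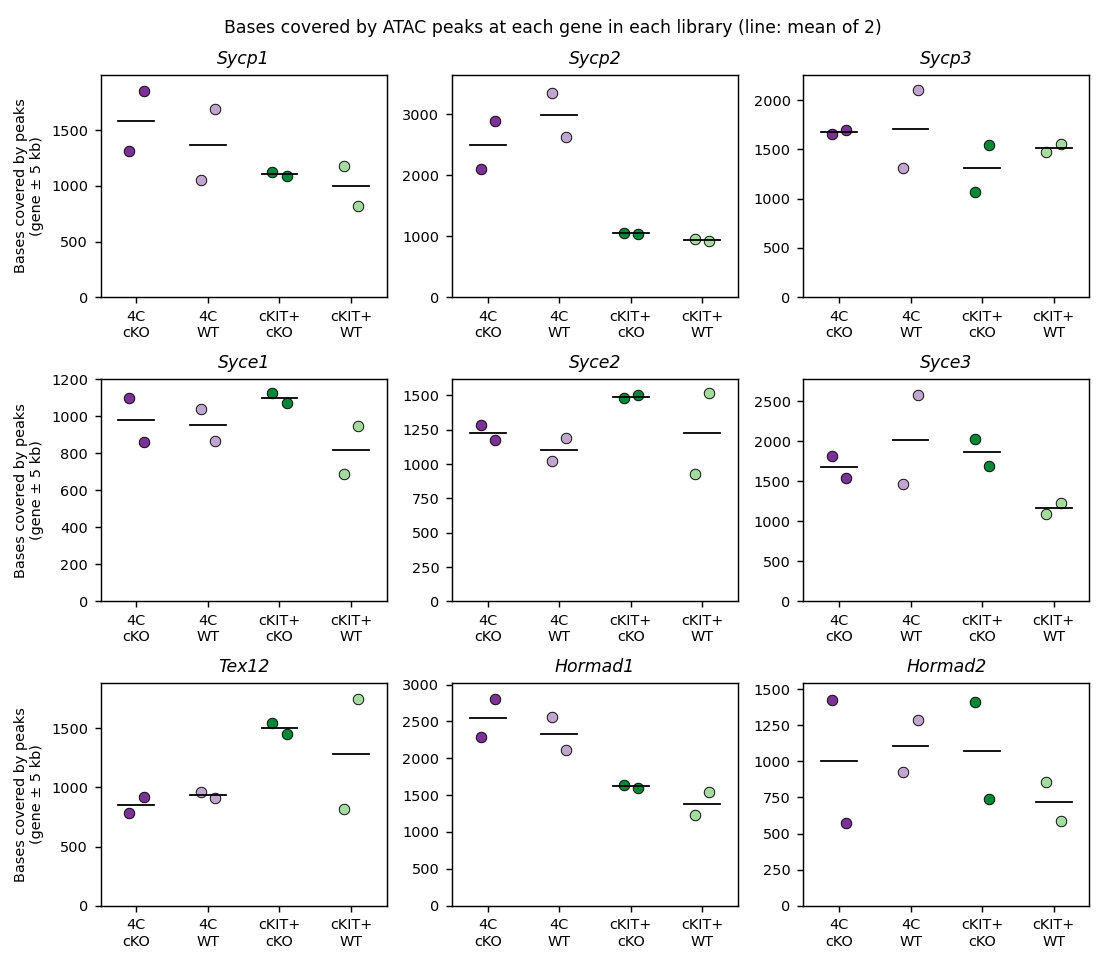
Bases covered by ATAC peaks over each gene and 5 kb on either side, in 8 libraries, with a line at the mean of the 2 libraries of a group (linear axes from 0). Sycp2 (2103 to 3355 bases in 4C libraries, 928 to 1060 in cKIT+ libraries) and Hormad1 (2108 to 2799 in 4C libraries, 1228 to 1643 in cKIT+ libraries) separate the stages without overlap.

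Between genotypes, the 4C-sorted libraries did not separate for any of the 9 genes with a window of 5 kb, where 22.1% of 21294 genes lay higher in both cKO libraries and 16.4% lower. With 2 against 2 libraries the smallest exact permutation p is 0.33, so no difference could pass 0.05. Which genes separated changed with each setting tried, and shares of all genes were not counted at these settings. Hormad2 was lower in cKO with 2 kb and Sycp2 was lower with 10 kb. Hormad1 was higher and Sycp3 lower with peaks of a −log10 q of at least 5 alone, and Sycp1 was higher and Sycp3 and Hormad2 lower with all lists cut to the length of the shortest. Summed covered bases were 14030 ± 392 in 4C-sorted cKO and 14520 ± 1171 in 4C-sorted WT (SD, n = 2 each), a log2 ratio of -0.05, which was 0.04 without 4C-sorted WT replicate 2. In cKIT+ cells 4 genes (Sycp2, Syce1, Syce3 and Hormad1) had more covered bases in both cKO libraries than in both WT libraries and 0 had fewer, beside 31.7% and 1.92% of 22921 genes. Syce3 had 2034 and 1697 covered bases in cKIT+ cKO, against 1096 and 1226 in cKIT+ WT (log2 difference 0.68, exact permutation p = 0.33). Syce1 had 1125 and 1071 in cKIT+ cKO, against 690 and 951 in cKIT+ WT (0.44, exact permutation p = 0.33). The summed covered bases were 12110 ± 536 in cKIT+ cKO and 10040 ± 1165 in cKIT+ WT (SD, n = 2 each). This is a log2 ratio of 0.27, and of 0.16 without cKIT+ WT replicate 1. The median log2 ratio of single genes was 0.44 over all genes, which is not the same measure as a ratio of sums. The length of the lists moved with genotype in cKIT+ cells. With all lists cut to the length of the shortest, 3 genes (Syce1, Tex12 and Hormad1) were higher in both cKO libraries and Sycp2 was lower. The share of all genes was not counted with cut lists. Sycp2 was also lower in both cKO libraries with peaks of a −log10 q of at least 5 alone, so its direction in cKIT+ cells turned with the setting. With both stages together the summed log2 ratio of cKO over WT was 0.09.

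Away from the start sites the peaks near these genes were mostly small and found in few libraries. Of 60 merged regions 51 were not start sites, and of these 34 were in 4C libraries alone, 14 in cKIT+ libraries alone and 3 in both, with 25 in a single library. Sycp2 held 12 regions seen in 4C libraries alone, none of them in every 4C library, and 1 in cKIT+ libraries alone. Hormad1 held 6 in 4C libraries alone and 2 in both stages. Sycp1 and Hormad2 each held 6 in 4C libraries alone and 1 in cKIT+ libraries alone, while Syce2, Syce3 and Tex12 held 0 in 4C libraries alone and 2, 4 and 3 in cKIT+ libraries alone. Exon or intron was not assigned to these regions, because the annotation used gives whole genes.

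By the rule of all libraries in one group and none in the other, 1 region was gained in 4C-sorted over cKIT+ cells, 1.67% of the 60 beside 1.63% of 219464 regions genome-wide. It lies in the gene body of Hormad1 at chr3:95581755-95582537. A region in the gene body of Syce3 at chr15:89397061-89397588 was lost, beside 2.72% genome-wide. In 4C-sorted cKO over WT, regions in the gene bodies of Sycp1 (chr3:102865617-102866029) and Sycp3 (chr10:88465151-88465431) were gained, 3.33% beside 1.98%, and a Hormad1 region (chr3:95567104-95567255) was lost, 1.67% beside 1.96%. In cKIT+ cKO over WT, a region downstream of Sycp2 (chr2:178343988-178344193) and a region in the gene body of Hormad2 (chr11:4355566-4356044) were gained, 3.33% beside 6.65%, and 0 were lost, beside 0.714%. A further 9 regions were in both cKIT+ cKO libraries and in cKIT+ WT replicate 2, and were absent from the short cKIT+ WT replicate 1 list alone. Several window regions belong to neighbours: the Hormad1 region downstream, present in all 8 libraries, covers the start of Golph3l, the Tex12 region downstream lies at the start of Il18, and the Syce3 region downstream lies in Klhdc7b.

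**Figure D5:**
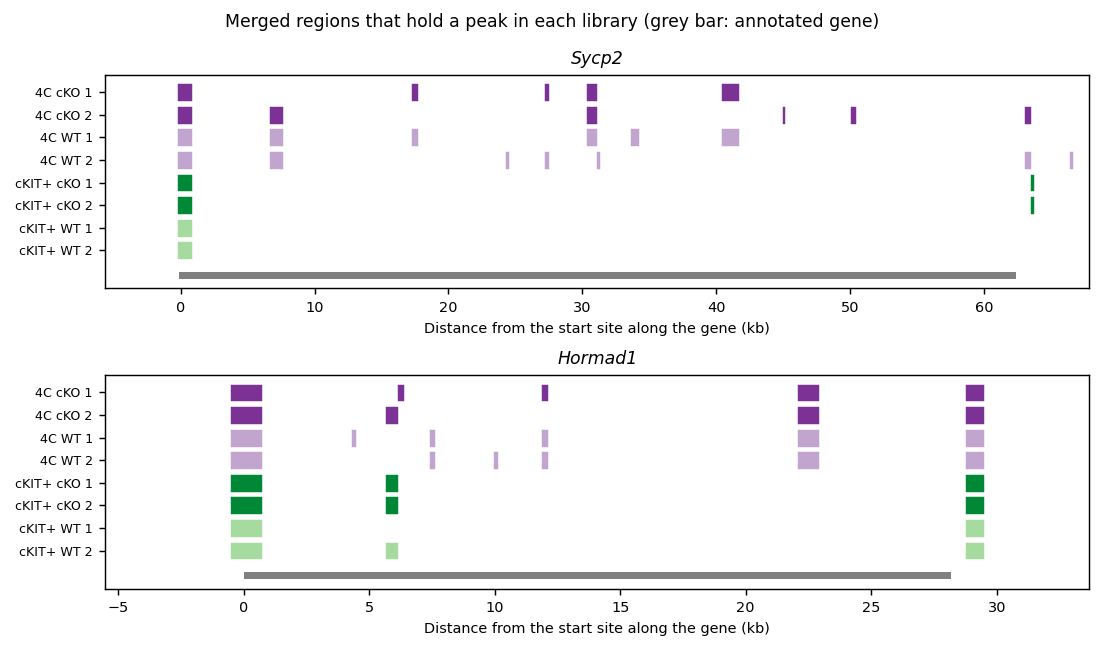
Merged regions that hold a peak in each library along Sycp2 and Hormad1, drawn to scale against distance from the annotated start in kb (grey bar, annotated gene). For Sycp2 the start-site region is in all 8 libraries and 12 other regions are in 4C libraries alone, none of them in every 4C library. For Hormad1 a gene body region about 22.1 kb past the start is in all 4 of the 4C libraries and in no cKIT+ library.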

How the data were processed

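For the RNA, the authors deposited unnormalized UMI counts. The file headers name Cell Ranger 7.1.0 for replicate 1 and Cell Ranger 9.0.1 for replicate 2. Seurat 4.1.0 and mm10 are named in the submitters' processing notes without a role. Replicate 1 lists 987771 barcodes and 63605819 UMIs, and replicate 2 lists 17744 barcodes of at least 500 UMIs and 115830234 UMIs. The peak lists were made by the authors per library with cutadapt, Bowtie2 and MACS2 on mm10, per the submitters' processing notes; versions, read depth and settings are not given in the sources used here. A deposited peak has the authors' score, fold enrichment over local background of its own library, and −log10 p and −log10 q.

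Barcodes with at least 1000 UMIs, 500 genes and at most 10% mitochondrial UMIs were kept (8098 and 14262). Scrublet in scanpy 1.11.5 removed 685 and 1329 doublets. Barcodes with over 35% of UMIs in genes over 50 kb long were set aside (743 and 2192). Each remaining cell took the best of 13 marker lists, with at least 3 markers and a score of at least 0.25, and 241 and 340 cells stayed unnamed. Sums of counts over the cells of a class in each sample were made for classes of at least 50 cells in both samples. They were filtered with filterByExpr, scaled by TMM and fitted with edgeR 4.0.16 (R 4.3.3), with the sample as a block because stages of 1 sample share a suspension. Germ and somatic classes shared the same estimate of spread, which is what remains after the difference between the samples is taken out. The undifferentiated step was not tested, since replicate 1 held 23 such cells. On simulated data for leptotene or zygotene over differentiating spermatogonia, 63 of 95 genes changed 4-fold and 10 of 87 changed 2-fold were recovered, with 2 false calls among 16425 genes. Intervals drawn are exact 95% Poisson intervals and cover counting error only.

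Peaks were intersected with RefSeq gene spans (GRCm38.p6) extended by 5 kb, and libraries were compared by exact permutation. Named genes are all 9 members, the 3 partner genes with the largest absolute change past the threshold in each step, and the genes most like the members by Pearson r. The members, gene lists and tests were chosen with earlier results of these data known. The stage-naming rule and the filter on long genes were set after the clusters and the members' levels had been seen, and the earlier rules were tried as alternatives, as were DESeq2 1.42.0, other filters, windows and peak thresholds.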

Additional observations from a re-analysis of the deposited data

Results flagged for a closer look

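In the 4 cKIT+ libraries, the covered bases of Sycp3 had a lowest value of 1068 (cKIT+ cKO replicate 1) against 1472 to 1550 in the other three, a gap of 0.838 of the whole range, where 0.83 is the critical value for 4 samples. Syce2 had a lowest value of 930 (cKIT+ WT replicate 1, the library with the shortest list) against 1481 to 1514, a gap of 0.943. Over the 20 groups checked, chance alone flags about 1 in 20.

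Barcodes set aside for a high share of UMIs in long genes held 4927 UMIs of the 9 genes in sample 1 and 20685 in sample 2, in data that no comparison above uses. Their median share of UMIs in genes over 50 kb was 53.7% and 49.3%, and ribosomal protein genes made up 2.02% and 1.21% of their UMIs. Sycp1, Sycp2 and Hormad2 are themselves over 50 kb long, but the 9 genes were not counted in the share that chose these barcodes. The values in these barcodes are a description. Sycp2 stood at 756 and 1106 CPM in them, against 392 and 168 CPM in named cells, and Hormad2 at 344 and 595 CPM, against 75.6 and 27.3. Hormad1, which is shorter than 50 kb, stood at 362 and 387 CPM in them, against 262 and 157. Sycp1 stood at 778 and 598 CPM in them, against 589 and 234. Syce1 stood at 111 and 90.9 CPM in them, against 483 and 438, and Sycp3 at 408 and 286, against 524 and 387. These groups mix stages. With the pachytene name, Sycp1 stood at 635 and 587 CPM in set-aside barcodes, against 760 and 274 in cells. With the leptotene or zygotene name, it stood at 2505 and 2232, against 2556 and 2252. Hormad1 was higher with the first name and lower with the second. Sycp2 and Hormad2 were higher, and Syce1 and Sycp3 lower, with both names in both samples. Annotated spans are 117.6 kb for Sycp1, 62.5 kb for Sycp2, 95.4 kb for Hormad2 and 10.6 kb for Syce1. What these barcodes are was not tested.

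In sample 1 the 15453 barcodes of 10 to 100 UMIs held 2583 UMIs of the 9 genes among 1078100 UMIs. Sample 2 lists no barcode under 500 UMIs, so its free RNA was not measured.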

How the results depend on the processing

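Values of single genes and counts of non-overlapping genes were compared with the reported ones under the alternatives tried. Of these, 556 were classed as unchanged, 9 passed the threshold newly, 12 missed it, 5 reversed and 9 counts moved. A reversal needed a changed sign and a call. Unchanged values therefore include genes that were not called and may have changed sign, and counts near the reported one. The filter on long-gene-rich barcodes, the naming by 2 markers and no minimum score, the summed marker share, the ATAC replicate blocks within and between stages, and the counts of non-overlapping genes under other settings were chosen after seeing the data. The cause of each change was not tested.

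In leptotene or zygotene over differentiating spermatogonia, the median log2 fold change (2.124) was 1.914 with DESeq2 size factors and with the DESeq2 Wald test, 1.797 with 2 markers and no minimum score, and 2.069 to 2.301 without one of the samples, which leaves no residual degrees of freedom for a test. In late pachytene or dividing over pachytene, the median (-0.032) was 0.169 with DESeq2 size factors and with the Wald test, -0.140 without the low-count filter, -0.088 with at least 2000 UMIs per cell, 0.037 with doublets kept, 0.106 with a best score of at least 1.5 times the second, -0.075 with long-gene-rich barcodes kept, 0.084 with 2 markers and no minimum score, 0.959 with the summed marker share, and -0.036 to -0.009 without one of the samples. The summed marker share called 5 genes higher there, reversing Sycp1 (1.347), Sycp3 (0.959), Tex12 (1.583), Hormad1 (1.095) and Hormad2 (1.018), and the 1.5 times rule called 1 lower (Sycp2, -0.890). In round spermatids over late pachytene or dividing cells the median (-1.661) was -1.975 without the filter, -2.204 with long-gene-rich barcodes kept and -2.892 with the summed marker share, which called 1 gene higher in place of 2. In elongating over round spermatids the genes called higher numbered 3 with DESeq2 size factors, 2 with the Wald test and 3 with the 1.5 times rule, 1 was called lower without the filter, and the median (0.061) was -0.346 with stages from clusters and 0.488 with the 1.5 times rule. Clusters gave a late pachytene class of 1046 cells in sample 1 and 0 in sample 2, so both steps around it have no value there. DESeq2 size factors moved the median of all genes by 0.315 in that last step, 0.208 in late pachytene over pachytene and -0.177 in leptotene or zygotene over differentiating spermatogonia, and leaving out the filter moved it by 0.363 in pachytene over leptotene or zygotene.

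Thinning to 1000 UMIs moved the median share of cells with a UMI to 26.078% and 21.486% in pachytene (73.756% and 72.072% unthinned) and to 39.223% and 53.350% in leptotene or zygotene (69.515% and 74.300%). With only peaks of −log10 q of at least 5, the log2 ratio of summed covered bases in 4C-sorted over cKIT+ was -0.061 in place of 0.366. Across the settings tried, 0 to 3 of the 9 genes had 4C-sorted libraries that all lay above the cKIT+ libraries, against 2 as reported. For cKO over WT, 3 to 5 genes were higher and 0 or 1 lower in cKIT+ cells, and 0 or 1 higher and 1 or 2 lower in 4C-sorted cells. Shares of all genes were not counted under these settings.

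Without the replicate block 7 genes rose into leptotene or zygotene and 7 fell into pachytene, in place of 8 and 8, since Syce1 and Sycp2 then missed the threshold. The calls of Syce1 (leptotene or zygotene) and Sycp2 (pachytene) were also lost with at least 2000 UMIs per cell and with stages from clusters. For ATAC, same-numbered libraries shared only a number, with correlations of their deviations between -0.010 and 0.035 over 23819 genes. With the replicate block the summed log2 ratio was 0.373 in 4C-sorted over cKIT+, and for cKO over WT -0.047 in 4C-sorted cells, 0.275 in cKIT+ cells and 0.114 over both, in place of 0.366, -0.049, 0.270 and 0.090.

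Limits: 2 samples per stage give a wide spread, and the self-test recovered few genes changed 2-fold. ATAC depth is unknown, and 2 libraries per group cannot reach 0.05.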
